A study of Mus musculus with 6 samples.

Results

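The Drd4 ganglion cells are described here by 2 arrays of the Drd4 line set against 2 arrays of Thy1 cells, 4 of the 6 arrays in the series. Arrays were assigned to groups by their titles. Retinal ganglion cells are the output neurons of the retina. In the Drd4 group, retinal cells positive for both GFP and Thy1 were sorted from a GFP mouse line named after the dopamine receptor gene Drd4. The Thy1 group holds Thy1-positive cells with no GFP selection, and Thy1 is a surface protein carried by ganglion cells in general. The remaining 2 arrays, cells positive for GFP and Thy1 from the Hb9 line, serve as a second comparison. All mice were C57BL/6 at postnatal day 6, the retinas were dissociated with papain, and the RNA went through 2 rounds of amplification. Replicate arrays were made from different litters. The sources used here give neither the number of animals pooled nor the construct that drives GFP in either line.

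ON-OFF direction-selective ganglion cells respond to light increments and decrements and fire most to motion in a preferred direction. The Drd4 line is known to mark a type tuned to posterior motion, and the Hb9 line a type tuned to upward motion. Their asymmetric inhibition comes from starburst amacrine cells. Such types are told apart by combinations of surface receptors, adhesion molecules, peptides and transcription factors.

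Across the 6 arrays, 68.2% to 78.9% of the 18193 genes lay above the brightest bacterial control probe set of the same array. These controls match bacterial transcripts and stand here for background, at log2 intensities of 4.95 to 5.38. Across genes, which are not independent replicates, the 2 Drd4 arrays correlated at 0.988 and the 2 Thy1 arrays at 0.990. The ratio of 3' to 5' Gapdh control signal, a sign of RNA integrity, was 3.84 to 4.45 in Drd4 and 3.99 to 4.10 in Thy1. In Hb9 it was 4.65 to 5.04. The same ratio for actin was 4.58 to 4.88 in Drd4, 4.64 to 5.06 in Thy1 and 4.02 to 4.81 in Hb9. Values below are log2 intensities, given for replicate 1 and then replicate 2. Differences are Drd4 minus Thy1 on the log2 scale with the standard error of limma (n = 2 arrays a group), and a gene is called higher or lower where its adjusted p over all genes was below 0.05.

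Upstream DNA is shown for 3 genes called higher in Drd4 than in Thy1, to give the sequence context of a peptide gene, a receptor gene and a transcription factor gene. Each run holds the 250 bases before the annotated start in RefSeq (GRCm38.p6), written 5′ to 3′ along the gene's strand, and 6 of 9 genes looked up had an entry. Capitals mark matches on either strand to 4 motifs, which do not overlap in these windows. The E-box CAGATG, which reads as CATCTG from the opposite strand, is known to be bound by NEUROD factors. The other E-box searched was CATATG. A homeodomain core, TAATTA, and the cyclic AMP response element, TGACGTCA, completed the search. The last motif was added after the Cartpt sequence had been read.
Cartpt (chr13:99900684-99900933, minus strand): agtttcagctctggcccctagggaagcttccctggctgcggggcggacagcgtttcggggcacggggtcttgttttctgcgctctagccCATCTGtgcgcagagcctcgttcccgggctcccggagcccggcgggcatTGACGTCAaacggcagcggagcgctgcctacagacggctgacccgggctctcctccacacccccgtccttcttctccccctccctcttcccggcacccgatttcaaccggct
Oxtr (chr6:112489826-112490075, minus strand): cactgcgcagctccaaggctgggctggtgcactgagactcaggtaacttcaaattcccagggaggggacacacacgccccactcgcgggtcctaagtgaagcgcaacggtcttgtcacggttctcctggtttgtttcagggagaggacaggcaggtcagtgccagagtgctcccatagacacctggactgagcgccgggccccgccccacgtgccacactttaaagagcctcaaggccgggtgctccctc
Neurod6 (chr6:55681264-55681513, minus strand): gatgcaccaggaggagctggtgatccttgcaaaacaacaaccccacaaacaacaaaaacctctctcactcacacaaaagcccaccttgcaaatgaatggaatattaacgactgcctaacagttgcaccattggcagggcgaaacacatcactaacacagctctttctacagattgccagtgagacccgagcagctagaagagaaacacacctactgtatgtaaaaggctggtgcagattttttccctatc
Cartpt held 1 CATCTG and 1 TGACGTCA, beginning at positions -161 and -112 from the start. Of 32851 RefSeq promoters cut to the same length, 14.4% held CAGATG on either strand, 3.46% held CATATG, 4.84% held TAATTA and 1.55% held TGACGTCA. The Oxtr and Neurod6 windows held none of the 4 motifs, which says only that these letters are not in these windows.

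The Drd4 arrays carried the marker genes of the type, while the gene that names the line was near background and not called. The 6 markers were picked with results of these arrays in view, so their values describe the arrays and support nothing further. Trhr, the receptor of thyrotropin-releasing hormone, read 10.02 and 9.61 on the Drd4 arrays, 4.84 and 5.22 on the Thy1 arrays, and 3.61 and 4.25 on the Hb9 arrays. Both Drd4 values lay far above all other arrays, and only the second Thy1 array exceeded its own background reference. The difference from Thy1 was 4.79 ± 0.23 (adjusted p = 8.95e-06), or at least 24.8-fold with the first Thy1 array set to its reference, and that from Hb9 was at least 22.6-fold, since Trhr was not above background in Hb9. A second Trhr probe set differed by 0.44 and did not pass. Oxtr, the oxytocin receptor, read 8.87 and 8.68 on the Drd4 arrays, 5.98 and 5.82 on the Thy1 arrays, and 5.42 and 5.59 on the Hb9 arrays. It was thus 7.32-fold higher than in Thy1 and 9.65-fold higher than in Hb9. Of the other Oxtr probe set the difference was 0.22, again not called.

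Mmp17, which encodes a membrane-anchored metalloproteinase, read 9.64 and 9.79 on the Drd4 arrays, 6.39 and 6.72 on the Thy1 arrays, and 6.93 and 6.66 on the Hb9 arrays. The groups were separated by 3.16 ± 0.18 (adjusted p = 1.46e-05), with Thy1 and Hb9 overlapping each other. Cdh7, a type II cadherin of homophilic adhesion, read 9.29 and 8.79 on the Drd4 arrays, 6.64 and 6.29 on the Thy1 arrays, and 6.82 and 7.04 on the Hb9 arrays, and all 3 of its probe sets were higher in Drd4, by 1.70 to 2.57. Kctd4, of the family of BTB-domain proteins that includes auxiliary subunits of GABA-B receptors, read 9.7 and 9.78 on the Drd4 arrays, 6.77 and 6.88 on the Thy1 arrays, and 6.89 and 6.59 on the Hb9 arrays, and both of its probe sets were called. All 3 genes were high on both Drd4 arrays, and none of them was called between Hb9 and Thy1 (adjusted p = 0.478, 0.207 and 0.804).

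Cartpt, a peptide precursor used as a marker of ON-OFF direction-selective cells, followed another pattern. It read 9.9 and 8.87 on the Drd4 arrays, 7.4 and 7.29 on the Thy1 arrays, and 9.27 and 9.4 on the Hb9 arrays. Drd4 and Hb9 overlapped (0.05 ± 0.27 as Drd4 minus Hb9, adjusted p = 0.942), while Drd4 exceeded Thy1 by 2.04 ± 0.27 (adjusted p = 0.00159). The 2 Drd4 arrays differed from each other more for Cartpt than for the other 5 markers. Drd4 itself read 5.29 and 5.83 on the Drd4 arrays, 5.85 and 5.39 on the Thy1 arrays, and 5.54 and 5.55 on the Hb9 arrays. The groups overlapped, and all these values lay close to background, which leaves little room for a difference. A second Drd4 probe set stood at 0.55 as Drd4 minus Thy1. Thy1 read 11.73 and 11.78 on the Drd4 arrays, 11.24 and 11.24 on the Thy1 arrays, and 11.66 and 11.5 on the Hb9 arrays, and the Drd4 arrays exceeded the Thy1 arrays by 0.52 ± 0.10 (adjusted p = 0.0149), a call lost without Drd4 replicate 2 (adjusted p = 0.0841) or either Thy1 replicate (0.0601 and 0.0545).

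**Figure D1:**
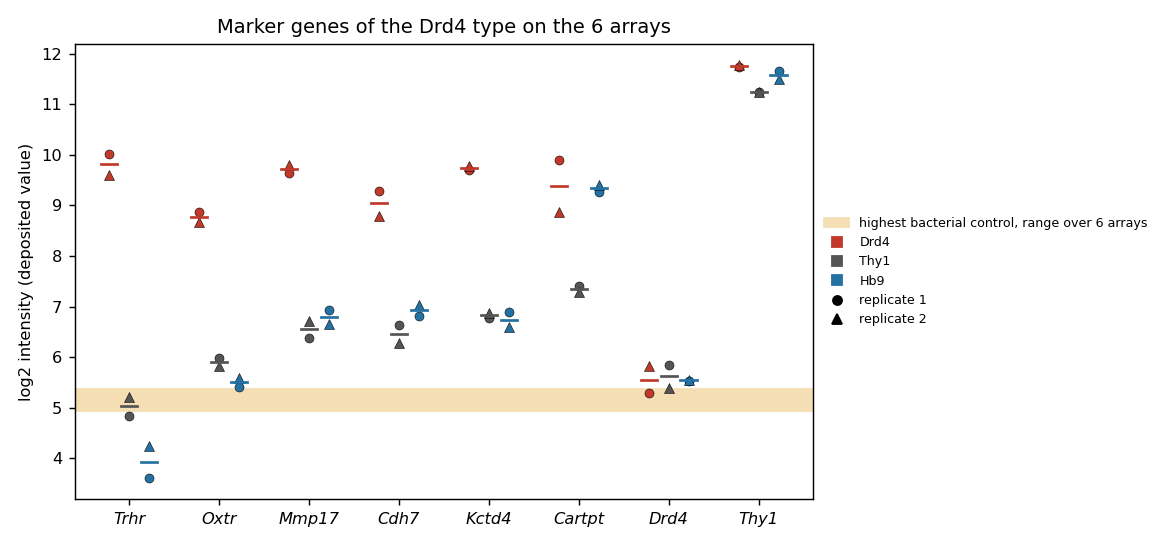
Log2 intensity of 8 genes on each of the 6 arrays, with circles for replicate 1, triangles for replicate 2, short lines for group means and a band for the range of the brightest bacterial control (4.95 to 5.38). Trhr, Oxtr, Mmp17, Cdh7 and Kctd4 were high on the Drd4 arrays alone, Cartpt was also high in Hb9, and the Drd4 gene was not called in the Drd4 arrays.

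Over all genes, 995 of 18193 (5.47%) differed between Drd4 and Thy1, 274 higher (1.51%) and 721 lower (3.96%). Where both arrays of the brighter group had to exceed the bacterial controls, 264 were higher (1.45%) and 674 lower (3.7%). The median difference of all genes was 0.02. Without Thy1 replicate 1 there were 179 higher and 487 lower. These shares are the background for every count below. In 21 genes named below as lower, replicate 1 alone of the Drd4 arrays was above its background reference, so their log2 differences rest in part on a value at background. They are Ahnak, Bcl11a, Cald1, Col3a1, Epas1, Ets1, Fli1, Grin3a, Ifitm3, Irx1, Jag1, Jam2, Kcnip4, Kcnj8, Mgp, Mmp14, Postn, Rgs5, Runx1, Tbr1 and Tpbg. For Chsy3, Npy1r and Pou4f3 the same held for 1 Thy1 array. A lower level in a sorted pool can mean fewer cells of a type or less RNA per cell, which cannot be told apart.

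**Figure D2:**
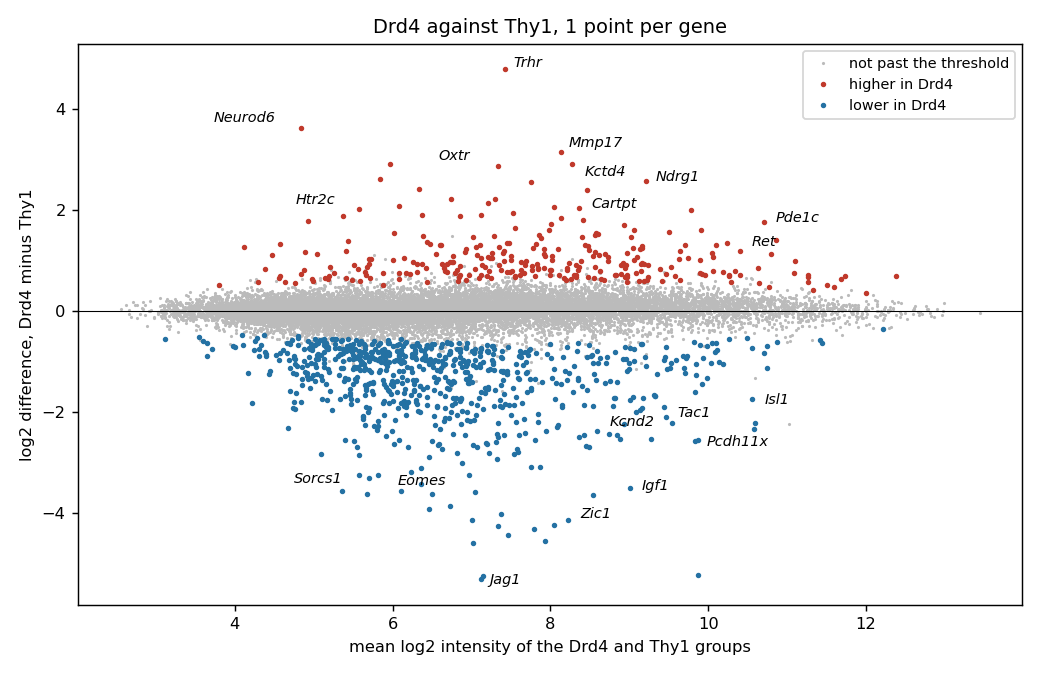
Difference between Drd4 and Thy1 (log2, vertical) against the mean log2 intensity of both groups (horizontal), with 1 point for each of 18193 genes. Red points are the 274 genes called higher in Drd4 and blue points the 721 called lower, and the labels name genes described in the text, with Trhr at 4.79.

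Beyond the markers, the largest rises covered a transcription factor, a channel, a collagen and several signalling genes. Neurod6, a basic helix-loop-helix factor of neuronal differentiation, read 7.06 and 6.25 on the Drd4 arrays, 2.96 and 3.08 on the Thy1 arrays, and 2.85 and 2.67 on the Hb9 arrays. It was above background only in Drd4, which makes it at least 2.87-fold higher than in Thy1 (adjusted p = 1.68e-05). Such bounds set the bright group against the background reference of the dim one. Col24a1, a fibrillar collagen gene, read 7.48 and 7.36 on the Drd4 arrays, 4.54 and 4.47 on the Thy1 arrays, and 4.4 and 4.34 on the Hb9 arrays and was at least 4.87-fold higher than in Thy1. Kcna5, a Shaker-type potassium channel subunit, read 7.04 and 7.29 on the Drd4 arrays, 4.34 and 4.73 on the Thy1 arrays, and 4.0 and 4.34 on the Hb9 arrays and was at least 4.07-fold higher. These 3 genes were below the background reference on all Thy1 and Hb9 arrays. Cidea, known from lipid droplets, was above it only in Drd4 as well and at least 3.97-fold higher than in Thy1.

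Ndrg1, a gene of stress responses and myelinating glia, read 10.36 and 10.66 in Drd4 against 7.66 and 8.17 in Thy1. All 5 of its probe sets were called higher, by 0.73 to 2.88. Lrp4, a receptor of agrin at synapses and a modulator of Wnt signals, differed by 2.22 ± 0.14 from Thy1 and was not above background in Hb9 (at least 5.80-fold). Alk, a receptor tyrosine kinase (2.06 ± 0.15), Mapk4, an atypical MAP kinase (2.15 ± 0.19), and Vwc2, a secreted BMP regulator (2.23 ± 0.23), rose too. Chsy3, a chondroitin sulphate synthase, rose by 2.42 ± 0.35, with the Drd4 arrays at 8.19 and 6.91. The other probe sets of Chsy3 and Vwc2 differed by 0.37 and 0.39 and were not called. The rises had been ranked on their Drd4 values, so calls against Hb9 with the same Drd4 arrays are no separate support. Over all genes 2.06% were called higher in Drd4 than in Hb9. All 15 of the largest rises were so called, the picked markers Trhr, Mmp17, Oxtr, Cdh7 and Kctd4 among them. Of those, Chsy3 lost its call against Hb9 without Hb9 replicate 1 (adjusted p = 0.113) and with robust moderation (0.0698).

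Some receptors of peptides were called higher, among them the markers Trhr and Oxtr, which were picked with results of these arrays in view. Peptide receptors of this kind are G protein-coupled and set the excitability of neurons through second messengers. Of 68 measured, 6 were higher in Drd4 and 2 lower, and the list median was 0.04. Besides Trhr and Oxtr these were Sstr4, a somatostatin receptor (8.13 and 8.14 in Drd4 against 6.97 and 6.58 in Thy1), Adcyap1r1, the PACAP receptor (7.97 and 8.01 in Drd4 against 6.6 and 6.81 in Thy1), Npy1r and Gipr. Sstr4 was 2.57-fold and Adcyap1r1 2.44-fold higher, and neither group pair overlapped. For Sstr4 1 of 2 probe sets was called, with the other at -0.14, and for Adcyap1r1 1 of 3, with the lowest at 0.02. Npy1r, a receptor of neuropeptide Y, differed by 1.04 ± 0.21, a difference not called once Thy1 replicate 2 was left out (adjusted p = 0.142). That setting had 4 higher receptors. Calcrl, a receptor component for CGRP and adrenomedullin that blood vessels are known to carry, was at least 3.03-fold lower, and Prokr1, a prokineticin receptor, was at least 1.08-fold lower. Trhr2 (0.06 ± 0.15) and Avpr1a (-0.18 ± 0.18), the nearest relatives of Trhr and Oxtr named outside the selection rule, were not called.

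Trhr and Oxtr signal through Gq and phospholipase C. Of 40 genes of that route 4 were higher and 1 lower (median 0.07), and 2 were higher without Drd4 replicate 1 or Thy1 replicate 1, with 2 lower without Thy1 replicate 2. Trpc6, a cation channel opened by diacylglycerol, read 6.27 and 5.98 on the Drd4 arrays, 4.42 and 5.03 on the Thy1 arrays, and 3.89 and 3.79 on the Hb9 arrays, and was at least 1.99-fold higher than in Thy1. Ryr2, a calcium release channel, was 2.33-fold higher, with its other probe set at 0.09 and not called. Prkch, a protein kinase C gene, was lower (-0.91 ± 0.15). Plcb1 (0.79 ± 0.16) missed the threshold when Drd4 replicate 1 (0.0979 as adjusted p) or Thy1 replicate 1 (0.0839) was dropped. Dgke (0.67 ± 0.16) missed it when any array but Drd4 replicate 2 was dropped, with adjusted p of 0.0649 to 0.236.

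Of 23 monoamine receptor genes 1 was higher, and 0 were lower (median -0.06), with 1 lower without Drd4 replicate 1 or either Hb9 array. The higher gene was Htr2c, a Gq-coupled serotonin receptor, which read 6.78 and 6.4 on the Drd4 arrays, 4.53 and 4.59 on the Thy1 arrays, and 3.8 and 4.21 on the Hb9 arrays. It was below background in both other groups and at least 2.74-fold higher than in Thy1. Its second probe set differed by 0.10 and was not called. Among 21 regulators of G protein signalling, Rgs6 rose (0.93 ± 0.15) and Rgs10 fell (-0.88 ± 0.14). Rgs7bp (0.65 ± 0.14) missed the threshold whichever array was dropped (adjusted p from 0.0565 to 0.129), which left 1 higher gene. Rgs5, a pericyte gene, read 9.5 and 5.01 in Drd4 against 12.39 and 12.58 in Thy1, so the Drd4 arrays disagreed, and its call needed both Thy1 arrays (adjusted p = 0.0675 with the first dropped and 0.0735 with the second).

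Second messenger enzymes moved in both directions. Pde1c, a calcium-stimulated phosphodiesterase of cyclic nucleotides, read 11.72 and 11.46 on the Drd4 arrays, 9.95 and 9.68 on the Thy1 arrays, and 9.44 and 9.43 on the Hb9 arrays. All 6 of its probe sets were called higher, by 0.78 to 2.05. Adcy8, a calcium-stimulated adenylyl cyclase, was above background only in Drd4, at 5.1 and 5.39 (at least 1.08-fold over Thy1). The nitric oxide receptor subunits both fell. Gucy1a1 read 7.88 and 7.75 in Drd4 against 10.43 and 9.66 in Thy1 and Gucy1b1 7.15 and 7.22 in Drd4 against 8.8 and 9.04 in Thy1, differences of -2.23 ± 0.22 and -1.73 ± 0.17. Against Hb9 they were lower by like amounts, -1.96 ± 0.22 and -1.72 ± 0.17. Of the 37 phosphodiesterase and cyclase genes 2 were higher and 6 lower (median -0.01), and 4 were lower without Drd4 replicate 2.

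Of 18 KCTD genes 3 were higher, the picked marker Kctd4 among them, and 0 lower (median 0.08). Kctd8, an auxiliary subunit of GABA-B receptors, read 9.6 and 9.63 on the Drd4 arrays, 8.6 and 8.74 on the Thy1 arrays, and 7.66 and 7.95 on the Hb9 arrays, the highest in Drd4 and the lowest in Hb9. Kctd15 differed by 0.62 ± 0.15 and lost its call whichever array was dropped (adjusted p from 0.0701 to 0.231). Gabbr1, a GABA-B receptor subunit named outside the rule, was at 10.54 and 10.61 in Drd4 against 10.57 and 10.48 in Thy1 and was not called. Among 97 kinase and phosphatase genes 2 were higher and 6 lower (median 0). Camkv, a kinase-like calmodulin-binding protein of dendritic spines, was 3.84-fold higher, at 8.49 and 8.51 in Drd4 against 6.68 and 6.45 in Thy1. Ppp1r17, a protein phosphatase inhibitor, was 2.92-fold higher. Ppp1r1c, another regulator of protein phosphatase 1, was lower (-1.19 ± 0.16). Without Thy1 replicate 1 the list had 4 higher and 3 lower.

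Peptide genes other than Cartpt were mostly uncalled or lower. Of 52 precursors 1 was higher and 3 lower (median -0.02). Tac1, the substance P precursor, read 8.84 and 7.98 on the Drd4 arrays, 10.61 and 10.41 on the Thy1 arrays, and 10.03 and 10.48 on the Hb9 arrays, a difference from Thy1 of -2.1 ± 0.26. The other Tac1 probe set stood at 0.05. Crh, the corticotropin-releasing hormone gene, was above background in Thy1 alone and at least 1.69-fold lower in Drd4. Penk (-0.73 ± 0.15) needed Drd4 replicate 2 (adjusted p = 0.0986 when dropped) and both Thy1 arrays (0.0688 and 0.0785). Among 25 genes of peptide processing 2 were higher and 2 lower. The sortilin-related receptors Sorcs1 and Sorcs3 made up the lower pair. Sorcs1 read 4.49 and 3.61 on the Drd4 arrays, 7.41 and 7.3 on the Thy1 arrays, and 6.75 and 7.36 on the Hb9 arrays, below background in Drd4 and at least 4.86-fold lower than in Thy1. The granins Chga (0.71 ± 0.15) and Chgb (0.43 ± 0.11) were the higher pair, and limma called 0 of them when Drd4 replicate 2 or a Thy1 array was dropped.

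Extracellular proteases gave few calls. Of 23 matrix metalloproteinases and inhibitors Mmp17 alone was higher, while Mmp14 (-0.94 ± 0.15) and the inhibitor Timp3 (-0.94 ± 0.14) were lower. Mmp24, another membrane-type member named outside the rule, stood at 7.38 and 7.51 in Drd4 against 7.17 and 7.45 in Thy1 and was not called. Of 48 ADAM and ADAMTS genes, Adamts16 rose (1.06 ± 0.17), and Adam19 (-1.01 ± 0.17), Adamts5 (-1.01 ± 0.19) and Adamts9 (-1.17 ± 0.21) fell. When probe sets were averaged per gene, Adamts16 (adjusted p = 0.137), Adamts9 (0.168) and Mmp14 (0.118) were lost. Adamts5 was lost without Thy1 replicate 1 (0.0926) and Adamts9 without Thy1 replicate 2 (0.056).

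Adhesion families had members called in both directions. Cadherins hold neighbouring cells together by like-with-like binding. Of 32 classical and atypical cadherins 4 were higher, the picked marker Cdh7 among them, and 5 lower (median 0.12). Without Thy1 replicate 1, 2 were higher and 3 lower, with 2 higher also without Drd4 replicate 1. Cdh11, a type II cadherin, read 10.61 and 10.13 on the Drd4 arrays, 8.98 and 9.12 on the Thy1 arrays, and 7.81 and 7.79 on the Hb9 arrays. Drd4 was highest, Thy1 intermediate and Hb9 lowest, with no overlap, and both probe sets were called. Cdh10, also of type II, read 5.67 and 5.41 on the Drd4 arrays, 7.86 and 8.12 on the Thy1 arrays, and 8.6 and 8.69 on the Hb9 arrays, and was 5.44-fold lower than in Thy1, although 1 of its 4 probe sets was called. Cdh4, R-cadherin, fell by 1.32 ± 0.15, and Fat3, a giant cadherin of dendrite patterning, fell by 0.91 ± 0.13. Cdh1, E-cadherin, was below background in Drd4 (at least 1.14-fold lower than in Thy1), a call that needed Thy1 replicate 1 (adjusted p without it = 0.0596).

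The delta protocadherins, which mediate selective adhesion, had 2 of 12 higher and 3 lower (median -0.12). Pcdh11x read 9.29 and 7.81 on the Drd4 arrays, 11.32 and 10.92 on the Thy1 arrays, and 11.2 and 11.6 on the Hb9 arrays, and both probe sets were called, at -2.57 and -2.52. Under robust moderation the adjusted p was 0.0662. Pcdh19 read 7.27 and 6.67 on the Drd4 arrays, 9.09 and 9.36 on the Thy1 arrays, and 8.78 and 8.93 on the Hb9 arrays, and all 3 of its probe sets were lower. Pcdh10 went the other way (9.89 and 9.63 in Drd4 against 8.44 and 8.59 in Thy1), and so did Pcdh17 (1.14 ± 0.23), though not when Drd4 replicate 1 or Thy1 replicate 2 was dropped (adjusted p of 0.0562 in each case). Pcdh20 (-0.81 ± 0.16) needed Thy1 replicate 1 (adjusted p without it = 0.0927).

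Among 60 contactins, neurexins and leucine-rich synaptic proteins 8 were higher and 7 lower (median 0.08). Higher were the contactins Cntn4 (9.31 and 8.79 in Drd4 against 7.23 and 7.19 in Thy1) and Cntn3 (8.86 and 8.88 in Drd4 against 7.0 and 7.27 in Thy1) and the FLRT protein gene Flrt3 (9.48 and 9.16 in Drd4 against 7.58 and 7.43 in Thy1), which binds Unc5 receptors and latrophilins. These were 3.59-fold, 3.33-fold and 3.51-fold higher. Cntnap5a, a contactin-associated protein, fell by 2.06 ± 0.19, and Elfn1, a synaptic organiser, fell by 1.66 ± 0.27. Lrrtm3 was not above background in Drd4 and at least 2.00-fold lower. The list had 5 higher without Drd4 replicate 1 or Thy1 replicate 1, and 4 lower without Thy1 replicate 2.

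Of 62 immunoglobulin recognition molecules 5 were higher and 6 lower (median 0.02). Dscaml1, a homophilic molecule of retinal spacing, read 7.93 and 8.21 on the Drd4 arrays, 5.87 and 6.48 on the Thy1 arrays, and 7.09 and 7.52 on the Hb9 arrays. Thy1 was the lowest group, and Drd4 exceeded it 3.73-fold with 2 of 5 probe sets called. Ncam2 rose by 1.47 ± 0.23 and Dcc, a netrin receptor, by 1.07 ± 0.17. Jam2, a junctional adhesion molecule known to mark an OFF ganglion cell type, read 5.67 and 5.15 in Drd4 against 7.64 and 7.69 in Thy1, at least 4.69-fold lower. Unc5d, a repulsive netrin receptor that also binds FLRT proteins, fell by 1.9 ± 0.15, and Mcam, known from vessel walls, fell by 1.58 ± 0.21.

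Guidance genes also showed opposite signs within families. Of 31 semaphorins, plexins and neuropilins 4 were higher and 2 lower (median -0.03). Nrp2, a co-receptor of class 3 semaphorins, read 9.85 and 9.73 on the Drd4 arrays, 8.24 and 7.91 on the Thy1 arrays, and 7.61 and 7.72 on the Hb9 arrays, and all 4 of its probe sets were called. The class 3 ligand Sema3a rose by 1.25 ± 0.19 and Sema3e, a ligand of plexin D1, by 1.06 ± 0.14. Sema5a (1.06 ± 0.21) missed the threshold when Drd4 replicate 1 (0.0545 as adjusted p) or Thy1 replicate 2 (0.106) was dropped. Sema6d (-1.85 ± 0.15) and Plxnc1 (-1.72 ± 0.20) fell, with 1 of 4 and 1 of 6 probe sets called. Of 22 netrin, Slit and Robo genes 3 were higher and 4 lower (median -0.09), with 2 lower without Drd4 replicate 2 or either Thy1 replicate. Robo2, a Slit receptor, was above background in Drd4 and not in Thy1 (at least 1.61-fold), and the ligand Slit2 rose by 1.07 ± 0.14. Robo1 fell by 0.94 ± 0.20, a call that needed Drd4 replicate 2 (adjusted p without it = 0.123) and Thy1 replicate 1 (0.148).

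Most matrix genes were not called. Of 42 collagens 2 were higher and 7 lower (median -0.06), with 1 higher without Drd4 replicate 2 or Thy1 replicate 1. Col25a1, a transmembrane collagen of neurons, read 7.36 and 6.51 on the Drd4 arrays, 9.51 and 8.97 on the Thy1 arrays, and 10.76 and 11.17 on the Hb9 arrays. It was lowest in Drd4, intermediate in Thy1 and highest in Hb9, with 1 of 2 probe sets called. Col3a1 (-3.86 ± 0.32) and Col4a1 (-2.54 ± 0.16) were lower too, and neither was called between Drd4 and Hb9 (adjusted p = 0.507 and 0.945). Both are known from vessel walls. Vessel marker levels are given below, and their part in these falls was not tested. Of 32 proteoglycan genes 1 was higher and 6 lower (median -0.22), the higher one not called without Thy1 replicate 2. Lower were the glypican Gpc6 (-1.35 ± 0.20) and the heparan sulphate sulphotransferase Hs3st4 (-1.3 ± 0.16), among others.

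Of 82 potassium channel genes 6 were higher and 8 lower (median 0.01), with 3 higher without either Drd4 replicate. Kcnd2, a pore subunit of fast transient A-type current, read 7.32 and 7.5 on the Drd4 arrays, 9.77 and 9.79 on the Thy1 arrays, and 9.42 and 9.83 on the Hb9 arrays. Its modulator Kcnip4 read 5.13 and 4.77 on the Drd4 arrays, 7.36 and 6.85 on the Thy1 arrays, and 6.26 and 6.85 on the Hb9 arrays. Both were low on the Drd4 arrays alone, with a 5.18-fold and an at least 3.84-fold difference from Thy1 and all 3 Kcnip4 probe sets called. Dpp6, an auxiliary subunit of the same channels, was called in the other direction (0.71 ± 0.18). Kcnq3, of the M-current, was higher by 0.85 ± 0.15, and Kcnk1, a leak channel, was lower (-1.12 ± 0.16). Kcnj8, a channel known from pericytes, fell by 2.38 ± 0.18.

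Of 40 sodium and calcium channel genes Cacna1c, the L-type pore subunit, was the 1 higher, at 7.64 and 7.61 in Drd4 against 6.55 and 6.47 in Thy1. Cacna2d3, an auxiliary subunit, was at least 2.32-fold lower, and Cacng5 (-0.77 ± 0.15) needed Drd4 replicate 2 (adjusted p without it = 0.0992) and Thy1 replicate 2 (0.0881). Of 64 further channel genes 3 were higher and 2 lower, with 1 lower without Drd4 replicate 2 or Thy1 replicate 1. The higher ones were Trpc6, the ATP-gated P2rx3 (7.81 and 8.25 in Drd4 against 6.22 and 6.86 in Thy1) and Cngb3, a cyclic nucleotide-gated subunit known from cones (6.92 and 7.36 in Drd4 against 5.7 and 5.92 in Thy1). The other 10 cone genes measured were not called.

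Receptors for inhibitory input had 3 of 22 higher and 1 lower (median 0.10). Gabrg3 read 9.0 and 8.59 on the Drd4 arrays, 7.17 and 7.18 on the Thy1 arrays, and 6.82 and 6.79 on the Hb9 arrays, 3.06-fold higher than in Thy1, with 3 of 4 probe sets called. Gabrg1, a second gamma subunit of GABA-A receptors, rose by 0.99 ± 0.20 when both Thy1 replicate 1 (adjusted p without it = 0.127) and Drd4 replicate 1 (0.0536) were kept. Gabra5 (0.89 ± 0.16) missed the threshold when Drd4 replicate 2 (0.0615 as adjusted p) or Thy1 replicate 2 (0.0578) was dropped. Glra3, a glycine receptor subunit, was not above background in Drd4. Of 18 cholinergic receptor genes 1, the nicotinic subunit Chrna3, was higher (9.18 and 9.0 in Drd4 against 7.76 and 8.23 in Thy1), and 2 were higher without either Hb9 array. Of 32 glutamate receptor genes 0 were higher and 3 lower (median 0.03), with 1 higher without Drd4 replicate 2 or either Hb9 array. Grin3a, a modulatory NMDA receptor subunit, fell by 1.97 ± 0.30, and Shisa9, an AMPA receptor auxiliary protein, fell by 1.86 ± 0.22. For Shisa9 1 of 3 probe sets was called, with the highest at 0.06. Neto2 (-1.33 ± 0.27) needed Drd4 replicate 2 (adjusted p without it = 0.0685) and both Thy1 arrays (0.0607 and 0.089).

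On the release side, 4 of 78 genes were higher and 1 lower (median 0.13), with 2 higher without Drd4 replicate 1. Cplx1, a clamp and activator of vesicle fusion, read 11.62 and 11.59 on the Drd4 arrays, 10.63 and 10.57 on the Thy1 arrays, and 10.67 and 10.69 on the Hb9 arrays, and Syt4, a synaptotagmin of dense core vesicles, was higher by 0.69 ± 0.10. Slc18a2, the vesicular monoamine transporter, differed by 0.92 ± 0.17 and missed the threshold when Drd4 replicate 1 (0.0638 as adjusted p) or Thy1 replicate 1 (0.0709) was dropped. Synpr, a vesicle membrane protein, read 7.94 and 7.1 on the Drd4 arrays, 10.21 and 9.72 on the Thy1 arrays, and 9.01 and 9.32 on the Hb9 arrays, a difference of -2.44 ± 0.27 from Thy1. Of 47 EF-hand genes 1 was higher and 4 lower, and 0 were called higher in limma when Drd4 replicate 1, Thy1 replicate 1 or an Hb9 array was dropped. Lower was the calcium buffer Calb1 (5.57 and 6.6 in Drd4 against 7.98 and 7.83 in Thy1), for which 1 of 4 probe sets was called.

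**Figure D3:**
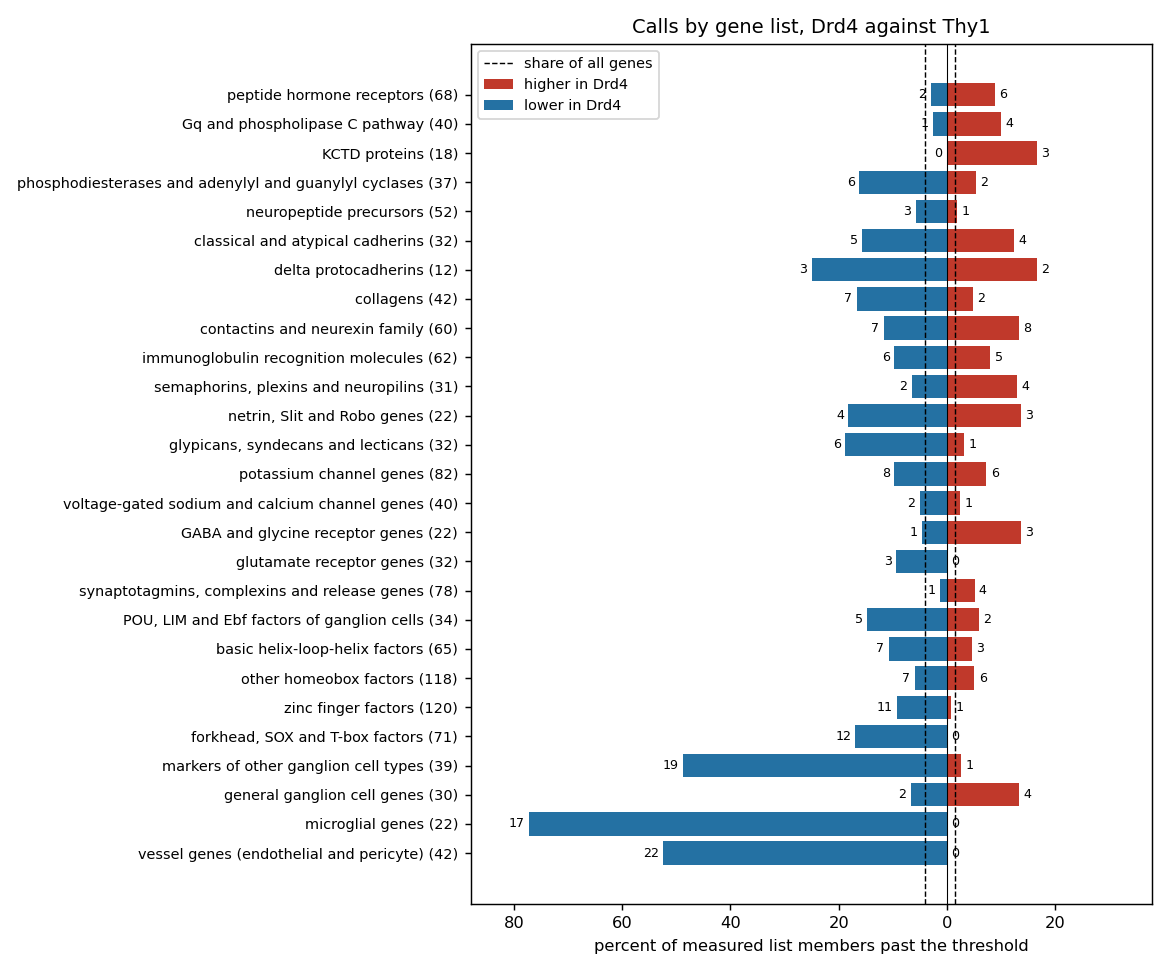
Percent of the measured members of 27 gene lists called higher (red, to the right) or lower (blue, to the left) in Drd4 than in Thy1, with the number called beside each bar and the list size in parentheses. Dashed lines are the shares of all genes, 1.51% higher and 3.96% lower, and the microglial and vessel lists at the bottom hold 17 and 22 lower members.

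Among 65 basic helix-loop-helix factors 3 were higher and 7 lower (median -0.09). The higher ones were all of the Neurod group, namely Neurod6, Neurod1 (9.27 and 9.25 on the Drd4 arrays, 8.09 and 8.29 on the Thy1 arrays, and 7.71 and 7.6 on the Hb9 arrays) and Neurod2 (0.81 ± 0.16). Both Neurod1 probe sets were called, and its Drd4 arrays lay above all 4 others. Among the lower ones Npas3 fell by 1.54 ± 0.15 against Thy1 and stood at -1.45 ± 0.15 against Hb9. Epas1, a hypoxia factor of endothelial cells, read 6.41 and 4.86 in Drd4 against 9.75 and 10.15 in Thy1.

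Of 120 zinc finger factors 1 was higher and 11 lower (median -0.01), with 2 higher without Drd4 replicate 1. The BCL11 pair split. Bcl11b, also called Ctip2, read 11.57 and 11.57 on the Drd4 arrays, 10.09 and 10.23 on the Thy1 arrays, and 10.06 and 10.59 on the Hb9 arrays. Bcl11a, also called Ctip1, read 6.36 and 5.1 on the Drd4 arrays, 8.34 and 8.48 on the Thy1 arrays, and 7.8 and 8.05 on the Hb9 arrays. Drd4 was thus the highest group for the first gene and the lowest for the second, with differences from Thy1 of 1.41 ± 0.17 and -2.69 ± 0.32. Zic1, a patterning factor, read 5.74 and 6.56 on the Drd4 arrays, 10.47 and 10.12 on the Thy1 arrays, and 8.59 and 9.18 on the Hb9 arrays, and both probe sets were called lower, at -4.2 and -4.14. Zic2, a factor that is known to steer ipsilateral axons, was not above background in Drd4 (at least 1.65-fold lower), and Prdm8 fell by 2.46 ± 0.20.

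POU, LIM and Ebf factors build and sort ganglion cell types. Of 34 measured 2 were higher and 5 lower (median 0.01), with 0 higher and 3 lower without Thy1 replicate 1 and 3 lower without Drd4 replicate 2. The higher count was 1 without Drd4 replicate 2 or either Hb9 array. Isl1 read 9.74 and 9.63 on the Drd4 arrays, 11.36 and 11.49 on the Thy1 arrays, and 11.54 and 11.69 on the Hb9 arrays. It remained bright in Drd4, yet both Drd4 values lay below all others, 3.34-fold below Thy1, with 2 of 2 probe sets called. Pou3f1 was not above background in Drd4 (at least 1.78-fold lower). Pou4f3 (0.77 ± 0.19) missed the threshold when Drd4 replicate 2, Thy1 replicate 1 or either Hb9 array was dropped (adjusted p from 0.0567 to 0.293), and Pou3f2 (1.23 ± 0.26) when Thy1 replicate 1 was (0.122). Pou4f1, named outside the rule, was at 11.77 and 11.33 in Drd4 against 11.57 and 11.39 in Thy1 and was not called.

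Of 118 other homeobox factors 6 were higher and 7 lower (median -0.01). Irx6 read 7.8 and 8.22 on the Drd4 arrays, 6.8 and 6.83 on the Thy1 arrays, and 6.78 and 6.43 on the Hb9 arrays, and Irx5 rose by 1.02 ± 0.15, while Irx3 fell by 1.52 ± 0.17 and Irx1 fell by 0.91 ± 0.20. Members of 1 Iroquois family were thus called in both directions. Satb1, a chromatin organiser of direction-selective cells, read 11.41 and 11.33 on the Drd4 arrays, 10.26 and 10.2 on the Thy1 arrays, and 10.94 and 11.23 on the Hb9 arrays, with 4 of 5 probe sets higher than in Thy1. Drd4 and Hb9 differed for Satb1 by 0.29 ± 0.13, which was not called (adjusted p = 0.255). Meis2 fell by 2.79 ± 0.26 and Zfhx4 fell by 1.74 ± 0.16, and both were low against Hb9 too (-1.96 ± 0.26 and -1.84 ± 0.16).

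Of 71 forkhead, SOX and T-box factors 0 were higher and 12 lower (median -0.05), with 6 lower without Thy1 replicate 2 and 1 higher without Thy1 replicate 1. Eomes, a factor of melanopsin-containing ganglion cells, read 5.24 and 5.45 on the Drd4 arrays, 8.48 and 8.69 on the Thy1 arrays, and 6.15 and 6.31 on the Hb9 arrays, and the Drd4 values lay just above the background reference. Tbr1, a factor of cells with dendrites in the OFF layer, fell by 1.45 ± 0.17. Foxp2 fell by 2.69 ± 0.44, with an adjusted p of 0.0928 under robust moderation. Foxc1, Tbx18 and Tbx20 were above background in Thy1 and not in Drd4 or Hb9, at least 1.90-fold, 1.84-fold and 3.25-fold lower in Drd4, and the first and second are known from pericytes.

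Among 42 nuclear receptors Rorb was the 1 higher gene and 3 were lower (median -0.01). Rorb, a retinal and cortical patterning factor, read 10.27 and 10.2 on the Drd4 arrays, 9.0 and 9.09 on the Thy1 arrays, and 7.82 and 8.03 on the Hb9 arrays, in the order Drd4, Thy1, Hb9 with no overlap. Nr2f2 fell by 1.97 ± 0.23, with 4 of 6 probe sets called, and stood at -1.91 ± 0.23 against Hb9. Esrrg fell by 1.65 ± 0.26, which was not called when probe sets were averaged (adjusted p = 0.0744). In the list of Eya, Dach, Maf and further factors 3 of 79 were higher and 14 lower (median -0.11), with 8 lower without Thy1 replicate 1 and 9 without Thy1 replicate 2. Without Drd4 replicate 2 or Thy1 replicate 1, 1 was higher. Nfib (4.76 and 4.27 in Drd4 against 6.68 and 6.85 in Thy1) and Tcf7l2 (4.74 and 4.43 in Drd4 against 6.95 and 6.38 in Thy1) were below background in Drd4, at least 3.24-fold and 3.01-fold lower. Both were above it in Hb9, at least 3.24-fold and 4.02-fold higher there than in Drd4. Runx1 (-2.64 ± 0.39) and Ets1 (-4.01 ± 0.45), known from blood and vessel lineages, were also lower, and their Drd4 arrays disagreed, at 6.06 and 4.45 for Runx1 and at 6.31 and 4.43 for Ets1.

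**Figure D4:**
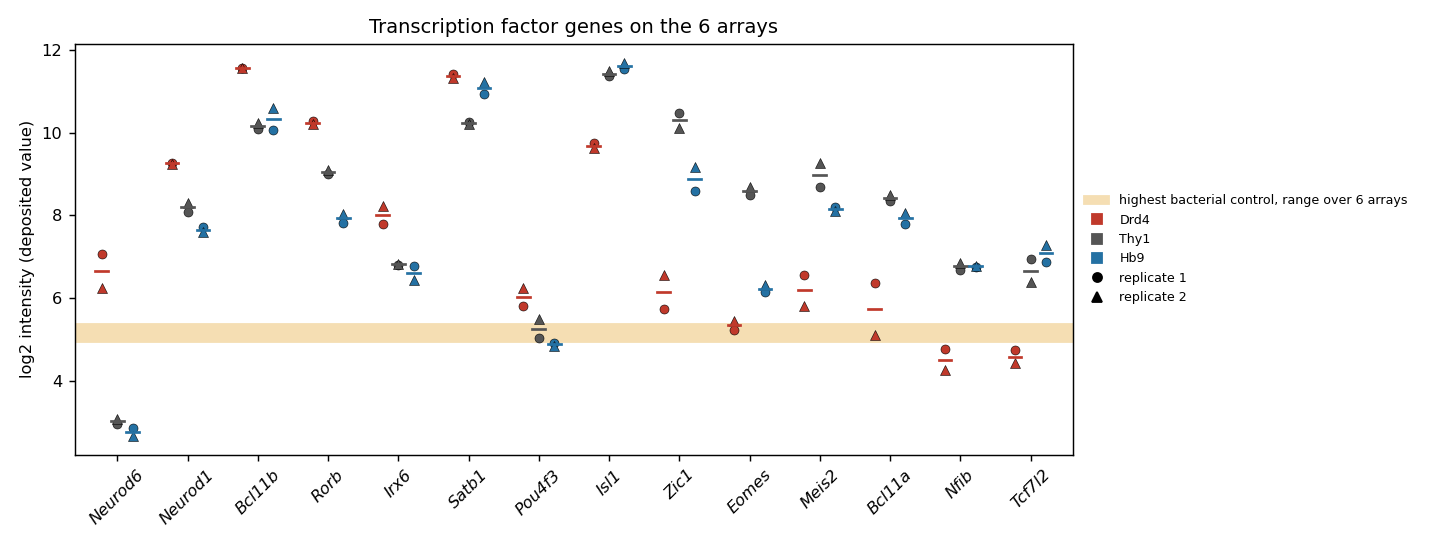
Log2 intensity of 14 transcription factor genes on each array, with symbols as in the plot of marker genes. Drd4 was the highest group for Neurod6, Neurod1, Bcl11b, Rorb, Irx6, Satb1 and Pou4f3 and the lowest for the other 7, with Isl1 still near 9.7 and Nfib and Tcf7l2 below the band.

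Of 19 IGF genes 0 were higher and 2 lower (median -0.19). Igf1, insulin-like growth factor 1, read 7.33 and 7.19 on the Drd4 arrays, 11.03 and 10.5 on the Thy1 arrays, and 10.62 and 10.25 on the Hb9 arrays. All 4 of its probe sets were called lower, at -3.5 to -1.88, and Drd4 was 11.3-fold below Thy1 and differed from Hb9 by -3.17 ± 0.20. The Hb9 and Thy1 values of Igf1 overlapped. The summed microglial intensity was 1800 to 4940 in Drd4, 2550 to 3390 in Hb9 and 10700 to 18800 in Thy1, and its part in the Igf1 difference was not tested. Igfbp7, known from vessels, fell by 2.61 ± 0.21.

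Ret, the signalling receptor of GDNF family ligands, was bright at 11.13 and 10.87 in Drd4 against 9.87 and 9.73 in Thy1 and rose by 1.2 ± 0.16, 1 of 19 neurotrophin and GDNF family genes higher. Of 43 BMP and TGF-beta genes 3 were higher and 3 lower (median -0.02), with 1 lower without Thy1 replicate 1. Fstl5, a follistatin-like protein (10.86 and 10.54 in Drd4 against 8.84 and 9.38 in Thy1), Tgfbr3, a co-receptor (8.03 and 8.3 in Drd4 against 6.8 and 6.8 in Thy1), and the ligand Tgfb2 (8.02 and 7.37 in Drd4 against 6.47 and 6.37 in Thy1) were the higher ones. Of 54 Wnt genes 4 were higher and 0 lower (median -0.01), and the count was 4 with each array left out. They were the receptor Fzd1 (1.14 ± 0.15), the secreted modulators Dkk3 (1.12 ± 0.16) and Dkkl1 (0.88 ± 0.14), and Axin2, a feedback target of the pathway (1.09 ± 0.17). Fzd1 and Tgfbr3 each had 1 of 2 probe sets called, with the others at -0.11 and -0.16. Of 17 Notch genes 0 were higher and 3 lower (median -0.13). The ligand Jag1 read 5.28 and 3.67 on the Drd4 arrays, 9.68 and 9.87 on the Thy1 arrays, and 6.81 and 6.7 on the Hb9 arrays, at least 23.3-fold lower than in Thy1 with 2 of 3 probe sets called, and the pericyte receptor Notch3 fell by 1.87 ± 0.16.

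Most general ganglion cell genes were not called. Of 30 measured 4 were higher and 2 lower (median 0.14), and 2 were higher without Drd4 replicate 2 or Thy1 replicate 1. Slc17a6, the vesicular glutamate transporter of ganglion cells, was at 11.65 and 11.2 in Drd4 against 11.19 and 11.24 in Thy1, and the RNA-binding protein gene Rbpms at 10.63 and 10.53 in Drd4 against 10.35 and 10.57 in Thy1, and neither was called. Nefm, a neurofilament subunit, rose by 0.67 ± 0.12. Markers of other ganglion cell types had 1 of 39 higher and 19 lower, with a median of -0.62 against 0.02 for all genes. With 1 array left out at a time, 15 to 18 were lower and 0 to 2 higher (0 without either Drd4 array or Thy1 replicate 1, 2 without either Hb9 array). The same list had 2 higher and 15 lower against Hb9 (median -0.43), a comparison in which 4.06% of genes were lower, and 12 to 16 were lower with 1 array left out. Members lower against both sorts included Zic1, Meis2, Nr2f2, Zic2, Tac1 and Tpbg (-1.81 ± 0.17 against Thy1 and -2.22 ± 0.17 against Hb9), and both comparisons share the Drd4 arrays. Of 14 genes tied to ON-OFF direction-selective cells in the field 4 were higher and 5 lower, with 3 lower without Drd4 replicate 2 or Thy1 replicate 2. The higher genes included Trhr, Mmp17 and Cartpt, markers picked with results of these arrays in view. Penk, Col25a1, Calb1 and Kcnip4 stood on the lower side with Tenm1 (-0.70 ± 0.16).

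Of 90 respiratory chain and ATP synthase genes 0 were called in limma (median -0.04), and of 49 ribosomal protein genes 3 were lower (median -0.24), a count of 0 without Drd4 replicate 1 or Thy1 replicate 2 and of 1 without either Hb9 array. At an unadjusted p below 0.05, 9 of the 90 respiratory and 21 of the 49 ribosomal genes differed, and 43 of the 49 were lower by sign. Against Hb9 the lower genes numbered 26 and 14, with medians of -0.30 and -0.39. Those counts were 0 and 1 without Hb9 replicate 1, 7 and 5 without Hb9 replicate 2, and 7 and 3 without Drd4 replicate 1. The Gapdh control ratio differed between these groups as given above, while their actin ratios overlapped. The part of RNA integrity in these counts was not tested. Of 24 glycolysis genes 0 were higher and 3 lower (median 0.01), with 1 higher without Drd4 replicate 1 or Thy1 replicate 2 and 2 lower without either Thy1 array.

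Over all genes 4.06% were called lower in Drd4 than in Hb9. That comparison uses the same Drd4 arrays on which the falls were ranked, so it is no separate support. Of the 15 largest falls outside the microglial and vessel lists 8 were also called lower than in Hb9. They were Zic1, Igf1, Sorcs1, Jag1, Mgp, Postn, Itih5 and Cryab. Mgp lost that call without Drd4 replicate 2 (adjusted p = 0.0631) or Hb9 replicate 1 (0.158), and Itih5 without Drd4 replicate 2 (0.0569) or Hb9 replicate 2 (0.121). Jag1 lost it with robust moderation (0.0591) and Cryab with averaged probe sets (0.0565), as did Itih5 (0.0652). Cald1 and Mylk, regulators of actomyosin contraction, read 6.89 and 4.98 in Drd4 against 10.0 and 10.34 in Thy1 and 7.56 and 5.88 in Drd4 against 10.34 and 10.38 in Thy1. Mgp, a matrix protein, and Postn, periostin, differed by -4.13 ± 0.31 and -3.63 ± 0.21, Ahnak by -4.43 ± 0.37 and Ifitm3, an interferon-induced membrane protein, by -3.42 ± 0.22. For Ahnak 1 of 4 probe sets was called, with the highest at 0.07. Itih5, Cryab and Myl9 were not above background in Drd4 and at least 10.2-fold, 5.36-fold and 5.13-fold lower. Fli1 (-3.59 ± 0.88) read 6.99 and 3.5 in Drd4 against 9.54 and 8.14 in Thy1, and its call needed both Thy1 arrays (adjusted p = 0.257 with the first dropped and 0.0624 with the second).

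These falls stood beside markers of other cells. Of 22 microglial genes 17 were lower in Drd4 (median -2.22), 10 without Thy1 replicate 1, and of 42 vessel genes 22 were lower (median -0.94). The summed intensity of the microglial list was 1800 to 4940 in Drd4, 10700 to 18800 in Thy1 and 2550 to 3390 in Hb9, and Itgam and Cd68 were not above background in Drd4. That of the vessel list was 2850 to 4320, 16900 to 17900 and 4470 to 4960, and 12 members, Pecam1, Cdh5, Cldn5 and Tek among them, were not above background in Drd4. Against Hb9, 0 microglial and 4 vessel genes were lower, with medians of 0.03 and -0.08, and at an unadjusted p below 0.05 1 of the 22 microglial and 12 of the 42 vessel genes differed. The part of these cells in the falls against Thy1 was not tested. Taking the genes of the microglial, vessel, dividing cell and immediate-early lists out of the called genes left 937, 274 higher and 663 lower. The adjusted p values were those of the full fit. These lists held 0 higher genes, so the higher count could not change. Falls outside the lists, such as Ets1, remain in the lower count.

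Dividing cell genes had 10 of 27 lower (6 without Thy1 replicate 2) and immediate-early and dissociation genes 9 of 33 (4 without Thy1 replicate 1). Müller glia and progenitor genes had 5 of 21 lower and 1 higher, and their summed intensity was 2800 to 3210 in Drd4 against 4000 to 4190. Of 14 amacrine genes 3 were higher, namely Dab1 (10.07 and 9.66 in Drd4 against 8.41 and 8.11 in Thy1), a transducer of reelin with all 5 probe sets called, Neurod1 and Pax6 (0.79 ± 0.18). Pax6 needed Thy1 replicate 1 (adjusted p without it = 0.156) and Drd4 replicate 2 (0.137). The amacrine sum was 3800 to 3810 in Drd4 and 2010 to 2280 in Thy1, while Gad1, Slc32a1, Tfap2b, Slc18a3 and Ptf1a were not above background in Drd4. That sum includes the 3 called genes, and the list median was -0.07, with 8 of 14 lower by sign. The summed rod list was 509 to 520 in Drd4 and 485 to 519 in Thy1, and the starburst list 150 to 153 and 148 to 159.

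**Figure D5:**
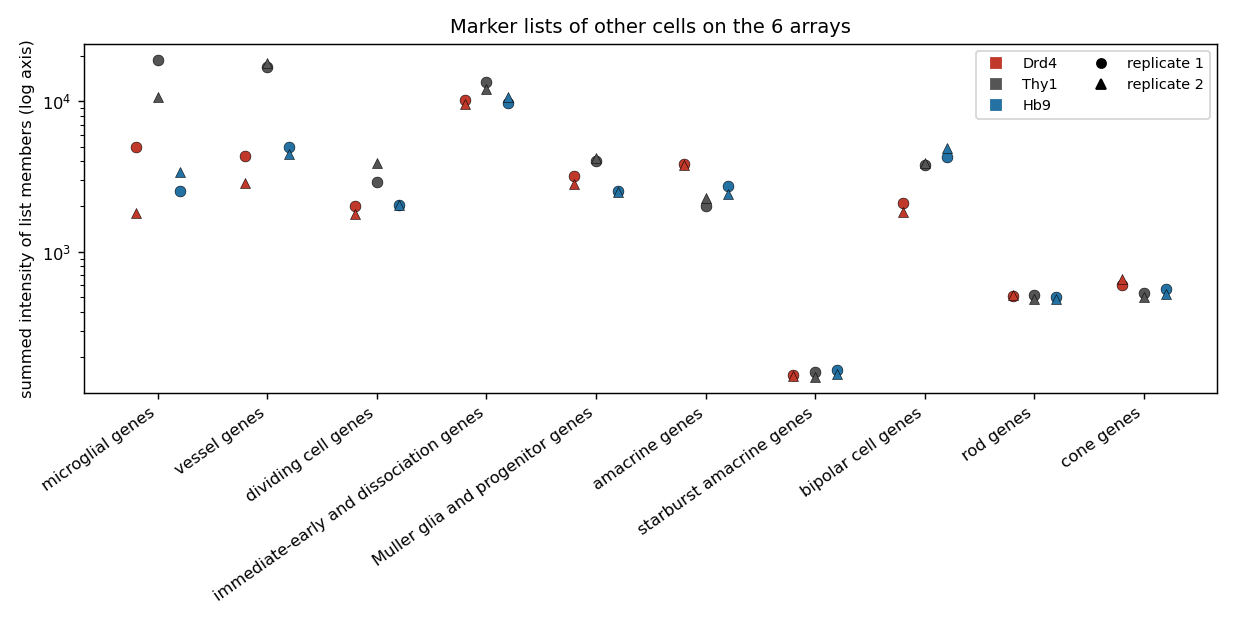
Summed intensity of the members of 10 marker lists (vertical, log axis) on each of the 6 arrays, with circles for replicate 1 and triangles for replicate 2. The Thy1 arrays lie above the Drd4 arrays for the microglial list (10700 to 18800 against 1800 to 4940) and the vessel list (16900 to 17900 against 2850 to 4320), and below them for the amacrine list, whose sum includes Dab1, Neurod1 and Pax6.

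Against Hb9, the other sort of a single direction-selective type, 1113 of 18193 genes (6.12%) differed, 374 higher in Drd4 (2.06%) and 739 lower (4.06%). With both arrays of the brighter group above the bacterial controls the shares were 1.95% and 3.81%. Between Hb9 and Thy1, 6.71% differed (3.52% higher and 3.19% lower in Hb9, or 3.36% and 3.01% above the controls). Against Hb9, 148 were higher and 263 lower without Hb9 replicate 1, 211 and 321 without Hb9 replicate 2, and 240 and 449 without Drd4 replicate 1. With quantile normalisation 44.9% of the called genes were higher, compared with 33.6% otherwise. Genes of receptor, adhesion and transcription factor lists that set Drd4 above both sorts included Trhr, Oxtr, Kctd4, Nrp2, Flrt3, Cntn3, Cdh11, Gabrg3, Rorb and Neurod1. For Nrp2 the difference from Hb9 was 2.12 ± 0.16, for Flrt3 2.18 ± 0.17, for Cntn3 2.11 ± 0.16 and for Gabrg3 1.99 ± 0.17. Cartpt, Satb1, Sema3e (-0.14 ± 0.14) and Chrna3 (-0.59 ± 0.18) were called against Thy1 and not against Hb9.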

How the data were processed

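Affymetrix probe set intensities on a linear scale were deposited for 6 arrays. The sources used here do not give their summarisation, background correction or normalisation. Values were taken to log2 after checking that 0 values were at or below 0. Of 45101 probe sets, 34945 had 1 gene, 932 several and 9160 none in the platform annotation, 64 were controls, and 34741 matched RefSeq. Each of 18193 genes was represented by its brightest probe set (mean log2 over 6 arrays). Other probe sets are given for some genes only, and those not given need not differ alike. Tests used limma 3.58.1 and R 4.3.3 (lmFit, eBayes with a trend), with a mean for each of 3 groups, two-sided tests and Benjamini-Hochberg adjustment at 0.05. Residual degrees of freedom were 3 and the prior 6.98. With 2 arrays a group the number of arrays limits the precision (median standard error 0.15). On simulated data of 18193 genes, 57.6% of log2 changes of 1 and 94% of changes of 2 between Drd4 and Thy1 were recovered.

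A fold is given as "at least" where a group was not above the brightest of 27 B. subtilis control probe sets on either array. Members and the 64 gene lists were chosen with earlier results of these data known. The named genes are 8 fixed ones, the 15 largest rises and 15 largest falls between groups without overlap (leaving out clones and the microglial, vessel, dividing cell and immediate-early lists), and up to 6 called genes of each list, plus those said to stand outside. Members that spell out a count of 5 or fewer or stand as family context, and Bcl11b, Dpp6, Irx1, Irx5, Kcnq3, Neurod2, Prokr1, Tenm1, Tpbg and Zic2, stand outside it and were chosen after their values were seen. Replicates are from different litters.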

Additional observations from a re-analysis of the deposited data

Results flagged for a closer look

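In 15 of the 239 genes named by the rule, the 2 GFP lines were called against Thy1 in opposite directions and also against each other. The last call is Drd4 minus Hb9 in limma and adds nothing independent. That difference is by construction Drd4 minus Thy1 less Hb9 minus Thy1, so opposite signs enlarge it. Only the 239 named genes were screened, and 238 of them had been selected as called or were called between Drd4 and Thy1. The share over all genes was not computed. Higher in Drd4 than in Hb9 were Trhr (5.89 ± 0.23), Lrp4 (2.96 ± 0.14), Trpc6 (2.29 ± 0.19), Kctd8 (1.81 ± 0.16), Cdh11 (2.57 ± 0.18), Sema5a (2.82 ± 0.21), Rorb (2.31 ± 0.15) and Tgfbr3 (2.07 ± 0.16). Lower in Drd4 were Cdh10 (-3.11 ± 0.17), Cdh1 (-3.63 ± 0.19), Fat3 (-1.45 ± 0.13), Col25a1 (-4.03 ± 0.28), Gpc6 (-2.82 ± 0.20), Glra3 (-1.61 ± 0.15) and Ppp1r1c (-2.23 ± 0.16).

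Both differences from Thy1 share the Thy1 arrays. As Hb9 minus Thy1 the differences were -1.1 ± 0.23 for Trhr, -1.25 ± 0.18 for Cdh11, -1.12 ± 0.15 for Rorb and 1.72 ± 0.28 for Col25a1. The calls of Hb9 against Thy1 were lost with an array left out for Trhr, Lrp4, Trpc6, Kctd8, Cdh10, Fat3, Glra3, Ppp1r1c and Tgfbr3, with adjusted p up to 0.279. With probe sets averaged, that call was also lost by Rorb (adjusted p = 0.32), Trhr (0.0729) and Tgfbr3 (0.0563). Glra3 then lost its call against Thy1 in both lines, and Sema5a in Drd4 (0.159). For Hb9 against Thy1, Cdh10 and Fat3 were lost under quantile normalisation (0.0875 and 0.0806) and with a replicate block (0.0618 and 0.0662). Trhr was lost there with 16 added to intensities before log2 (0.0591). With arrays left out, Sema5a and Cdh1 lost the call of Drd4 against Thy1, with adjusted p up to 0.106. In Trhr, Lrp4, Trpc6 and Sema5a the Hb9 arrays were not above the background reference, and in Cdh1 and Glra3 the Drd4 arrays were not, so the logarithmic differences of these genes depend on values near background.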

How the results depend on the processing

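Drd4 minus Thy1 gave 666 to 922 calls with 1 array left out, 179 to 241 of them higher. Drd4 minus Hb9 gave 411 to 1244 (148 to 387 higher, 263 to 857 lower). No named call reversed in 16 alternatives, and 164 of 238 kept it in all. Those genes were mostly picked for large differences, and the same share over all called genes was not computed. With probe sets averaged, 757 of all 995 calls between Drd4 and Thy1 were kept. Replicate numbers did not pair the samples by the labels (correlation of same-numbered deviations 0.37 for Drd4 and Thy1 and -0.279 for Drd4 and Hb9), and the replicate block gave 985 and 1030 calls. A crossed block for Drd4 and Hb9, added after the data were seen, gave 3403 (1037 higher, 2366 lower). Quantile normalisation gave 421 higher and 517 lower against Hb9, and median centring 431 and 539 (44.4% higher). Against Thy1, median centring gave 362 higher and 609 lower (37.3% higher, 27.5% otherwise).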
